A study of Mus musculus with 3 samples.

Results

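The genes described here are Ifnb1, which encodes interferon-beta, and the genes of the receptor chains for type I interferon (Ifnar1 and Ifnar2), interferon-gamma (Ifngr1 and Ifngr2) and interleukin-10 (Il10ra and Il10rb). They were chosen by gene symbol, and these 7 of the 55536 annotated genes were all found in the tables. Ribosomal RNA-depleted total RNA-seq had been made from the chromatin fraction of bone marrow-derived macrophages of the C57BL/6J mouse strain, primary cells grown out of marrow. The fraction holds RNA still bound to chromatin, so unspliced and newly made RNA weighs more in it than in whole-cell RNA. All 3 libraries belong to 1 group. The cells had been given lipid A, the part of bacterial lipopolysaccharide that TLR4 senses, at 100 ng/ml for 12 h. They were then kept without it for 12 h and given 100 ng/ml again for 30 min. The replicates were separate biosamples under 1 donor identifier, so p-values measure the spread between these samples. Replicate 1 was prepared from 1 µg of RNA, replicate 2 from 250 ng and replicate 3 from 500 ng, so input and replicate cannot be told apart. No cells without lipid A, or with a single exposure, were analysed here, so no level can be read as a response to it.

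Depth was 12401783, 18317179 and 18164629 expected counts on genes in replicates 1, 2 and 3. All 10 macrophage markers were above 1 TPM (a level per transcript length on a common scale), led by Adgre1, Lyz2 and Csf1r with means of 345, 262 and 178 TPM. Of 27 markers of lymphoid, dendritic, granulocytic and stromal cells, 1 was above 1 TPM, the dendritic cell marker Ccr9 at 3.81 ± 0.459 TPM (SD, n = 3), while Siglech, which marks plasmacytoid dendritic cells, had 0.13 ± 0.148 TPM. Of these 27, 8 were above 1 TPM by the second transcript table. They were the T cell markers Cd3d (15.4 TPM on average) and Cd8a (2.63 TPM), the endothelial marker Pecam1 (9.93 TPM), Ccr9 (5.82 TPM), Siglech (2.01 TPM, limma adjusted p = 0.00603), Zbtb46 (1.90 TPM), Col1a1 (1.803 TPM) and Mpo (1.74 TPM). Their part in the levels described here was not tested. In bulk RNA such as this, fewer cells with a transcript and less of it per cell cannot be told apart.

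Interferon-beta is the type I interferon that macrophages make when TLR4 signals through the adaptor TRIF and the factor IRF3. It binds the pair of IFNAR chains, whose kinases are TYK2 and JAK1 and whose signal runs in part through STAT2. Interferon-gamma, made mainly by lymphoid cells, acts through the IFNGR pair, JAK1 and JAK2, and interleukin-10 acts through IL10RA, IL10RB and STAT3 to restrain inflammatory macrophages. All of these receptor chains belong to the class II cytokine receptor family.

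Ifnb1 RNA was found in every library, but on only 10, 6 and 7 counts in replicates 1, 2 and 3. The RNA of all 6 receptor chains was plainly present. Ifnb1 had a mean of 1.15 ± 0.511 TPM (SD, n = 3), and the receptor chains had means from 13.6 TPM for Ifngr2 to 107 TPM for Il10ra. Tested against a floor of 1 TPM with limma across 24180 genes, 6 of the 7 genes were above it and none was below it. Of all genes tested 51.1% were above and 31.7% below, and of the protein-coding ones 61.8% were above. The median over the 7 genes was 59.5 TPM, beside 2.02 TPM over all genes tested and 4.17 TPM over the protein-coding ones.

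The promoter sequences of these genes are shown first because the Ifnb1 window differs from the receptor gene windows available. A link of promoter sequence to RNA level was not tested. RefSeq windows on GRCm38.p6 were matched for 5 of the 7 genes: Ifnb1, Ifnar1, Ifnar2, Ifngr1 and Ifngr2. The 170 bases from position -220 to position -51 are printed for 3 of them, where -1 is the last base before the annotated RefSeq start. They lie at chr4:88522845-88523014 on the minus strand for Ifnb1, at chr16:91484995-91485164 on the plus strand for Ifnar1 and at chr16:91372563-91372732 on the plus strand for Ifnar2. Each is written 5′ to 3′, and capitals mark matches to any of the 7 motifs searched.
Ifnb1: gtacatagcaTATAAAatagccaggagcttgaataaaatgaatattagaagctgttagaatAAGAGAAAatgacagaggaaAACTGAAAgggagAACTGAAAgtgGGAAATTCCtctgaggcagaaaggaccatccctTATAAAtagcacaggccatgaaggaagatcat
Ifnar1: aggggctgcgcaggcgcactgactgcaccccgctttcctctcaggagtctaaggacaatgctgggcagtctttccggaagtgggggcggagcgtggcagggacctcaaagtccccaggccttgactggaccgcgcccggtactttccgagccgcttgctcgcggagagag
Ifnar2: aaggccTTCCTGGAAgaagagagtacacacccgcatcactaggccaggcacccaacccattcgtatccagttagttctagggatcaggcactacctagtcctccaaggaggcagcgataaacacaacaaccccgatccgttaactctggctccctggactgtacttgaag

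The motifs were searched on both strands in the 250 bases before the start, and matches may overlap. The Ifnb1 window held 3 of the 7 motifs. The NF-kB motif GGAANTTCC matched at -115 to -107, a motif that 0.813% of all 32851 promoter windows hold. The IRF half-site AANNGAAA, found in 21.3% of windows, matched at -159 to -152, -139 to -132 and -126 to -119. TATAAA, found in 12.4% of windows, matched at -210 to -205 and -82 to -77. The interferon response element GAAANNGAA, the GAS motif TTCNNNGAA, the AP-1 motif TGANTCA and the CRE/ATF motif TGACNTCA had no match in the Ifnb1 window. In all windows these letters occur in 7.13%, 7.02%, 6.75% and 7.49%. Ifnar2 held a single match, to the GAS motif at -214 to -206, and no motif matched in the windows of Ifnar1, Ifngr1 and Ifngr2. A match describes the letters and is not evidence of a bound factor.

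The windows also differed in base content. The Ifnb1 window was 39.6% G or C and contained 1 CpG, which put its CpG count at 0.103 of the count its base content would give. The receptor windows were 54.0% (Ifnar2), 59.2% (Ifngr1), 65.6% (Ifnar1) and 74.0% (Ifngr2) G or C, with 11, 11, 19 and 25 CpGs. Their CpG ratios were 0.606 to 0.841, beside a median of 0.373 over all windows.

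Ifnb1 (chr4:88522025-88522774, minus strand, mm10, the browser name of GRCm38) is a gene of 1 exon with 1 annotated transcript of 750 bases, so retained introns cannot add to its count. It had 1.73, 0.78 and 0.93 TPM in replicates 1, 2 and 3. Those levels rest on 10, 6 and 7 counts, and the exact 95% Poisson intervals were 0.832 to 3.19, 0.285 to 1.69 and 0.375 to 1.92 TPM, which cover counting error only. The 3 intervals overlap, and a difference between replicate 1 and the others was not tested. The mean log2 difference from 1 TPM was 0.11 (SE 0.27, limma adjusted p = 0.63), and Ifnb1 ranked 10022 of 15108 protein-coding genes with a nonzero level. The second transcript table, a separate estimate from the same reads, gave 1.86, 0.625 and 0.762 TPM from 16, 9 and 10 counts. Protein-coding genes held 33.4%, 29.8% and 31.5% of the TPM in the 3 libraries. When TPM was rescaled over protein-coding genes alone, Ifnb1 reached 5.19, 2.62 and 2.96 TPM and passed the 1 TPM test (limma adjusted p = 0.0017), as 72.4% of those genes did, so its call depends on which RNA the scale counts.

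**Figure D1:**
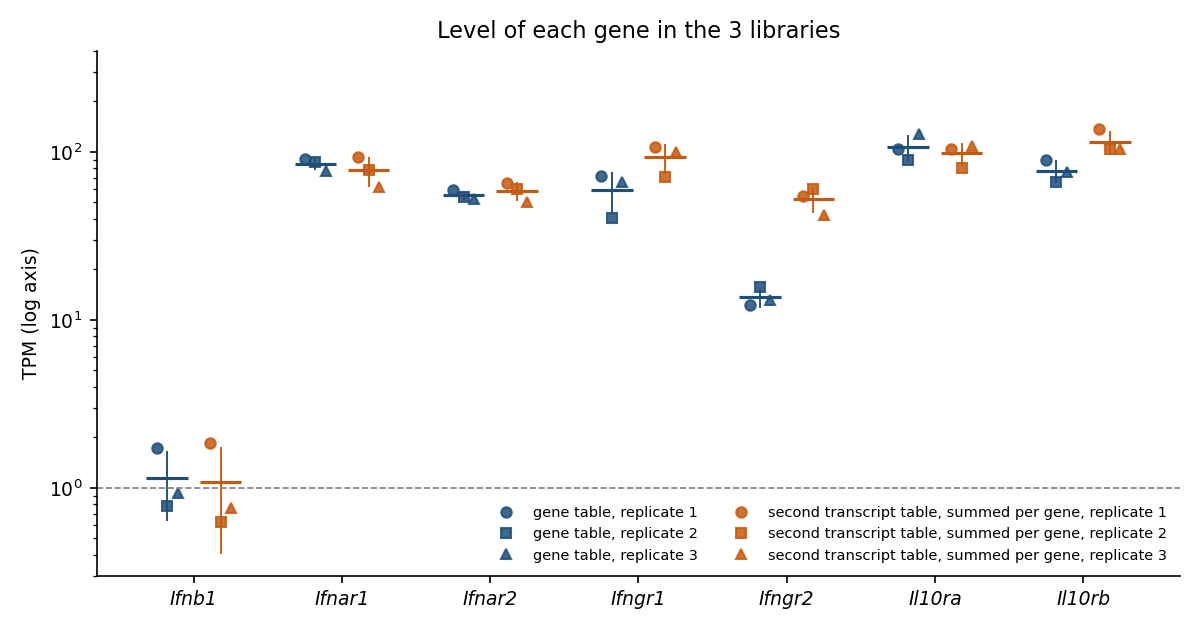
TPM (log axis) of each gene in replicates 1, 2 and 3 (circle, square, triangle) in the gene table and in the second transcript table, with the mean (horizontal bar) and SD (vertical line, n = 3); the dashed line is 1 TPM. Ifnb1 lies around the line at 0.625 to 1.86 TPM, the receptor chains lie above 12 TPM, and Ifngr2 is the gene whose estimates differ most between the tables, 13.6 against 52.2 TPM on average.

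Most of the other interferon genes had no count. Of all 55536 annotated genes, 24180 had a nonzero TPM in at least 1 library, and of these 51.1% were above 1 TPM and 31.7% below. Of 20 other interferon ligands, 16 had 0 counts in every library, 3 were below 1 TPM and 1 was above it. The exception was Ifnk, the gene of interferon-kappa, at 1.57, 2.67 and 1.8 TPM (limma adjusted p = 0.013), from 10, 23 and 15 counts. It was above Ifnb1 in replicates 2 and 3 and below it in replicate 1. The next highest were Ifnz and Ifna15, both at 0.0667 TPM. Ifng, the ligand of the IFNGR pair, had no count, which allows up to 0.479 TPM in the library with the highest limit (3 counts). Ifna16 was listed at 0 in the gene table and at 3.40 ± 0.54 TPM in the second transcript table, where its mean and that of Ifnk at 2.77 ± 0.223 TPM were above the 1.08 ± 0.675 TPM of Ifnb1. Why the tables differ in Ifna16 was not tested.

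Il10 encodes the ligand of the interleukin-10 receptor. It was the 1 of 5 IL-10 family ligand genes with any count, beside 24180 of all 55536 annotated genes with a nonzero TPM. It had 19.9, 8.04 and 47.8 TPM (limma adjusted p = 0.00196), and Il19, Il20, Il22 and Il24 had none. The libraries differed widely in Il10: replicate 3 was the highest and replicate 2 the lowest. Il10 RNA exceeded Ifnb1 RNA in every library.

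Ifnar1 (chr16:91485238-91507441, plus strand) encodes the IFNAR chain that binds TYK2. It had 90.9, 87.5 and 77.4 TPM, with a mean of 85.3 ± 7.01 TPM (SD, n = 3) and rank 751 of the 15108 protein-coding genes. The second transcript table gave it 93.8, 77.5 and 62.0 TPM, the same order of libraries with a wider range. Its log2 level above 1 TPM in the gene table was 6.27 (SE 0.15, limma adjusted p = 3.9e-05). Ifnar2 (chr16:91372783-91405589, plus strand), the chain that binds JAK1 and interferon with the higher affinity, had 59.3, 54.0 and 52.4 TPM. Its mean was 55.2 ± 3.57 TPM, rank 1289, at 5.65 (SE 0.14) on the log2 scale above 1 TPM (limma adjusted p = 3.9e-05). In TPM both chains were highest in replicate 1 and lowest in replicate 3. In library-scaled counts (edgeR, TMM) Ifnar1 kept that order at 220, 195 and 185, whereas Ifnar2 was highest in replicate 3, at 66.9, 62.8 and 70.8.

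Ifnar1 exceeded Ifnar2 in every library, by 1.53, 1.62 and 1.48 times. The mean log2 difference was 0.62 with an SD of 0.07, so the difference was larger than the spread between libraries. An exact two-sided sign-flip permutation test gave p = 0.25, the smallest that 3 libraries allow, so no such comparison of chains can reach 0.05. In the second transcript table the ratios were 1.43, 1.30 and 1.23. For the transcript numbered 201 of each gene, the spliced protein-coding form, they were 1.94, 1.505 and 1.39 in the first transcript table and 1.748, 1.43 and 1.37 in the second. Ifnar1 was thus the higher chain in all 3 libraries by all 4 measures.

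Ifngr1 (chr10:19591949-19610229, plus strand) encodes the ligand-binding chain for interferon-gamma. It had 71.8, 40.6 and 66.1 TPM, with a mean of 59.5 ± 16.6 TPM (SD, n = 3) and rank 1167. Replicate 2 stood below the other libraries by 0.84 on the log2 scale of scaled counts, a shift that only 5.11% of 14140 genes exceeded downward. The RNA input of that replicate was also the lowest, and its part in the shift was not tested. Ifngr1 was still above 1 TPM (log2 level 5.72, SE 0.23, limma adjusted p = 5.8e-05).

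Ifngr2 (chr16:91547072-91565623, plus strand) encodes the signalling chain that carries JAK2. It had 12.2, 15.7 and 13.0 TPM, a mean of 13.6 ± 1.81 TPM and rank 4342, the lowest of the receptor chains (log2 level 3.63, SE 0.16, limma adjusted p = 6.9e-05). Its highest library was replicate 2, in which Ifngr1 was lowest. The ratio of Ifngr1 to Ifngr2 was therefore uneven at 5.89, 2.60 and 5.07, a mean log2 difference of 2.08 with an SD of 0.63.

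The size of that ratio depends on how reads were given to transcripts. The second transcript table put Ifngr2 at 54.5, 59.9 and 42.2 TPM, 3.83 times the gene table on average, and 5.74% of 11274 protein-coding genes differed upward by as much or more. Over those genes the second table was higher by a median of 0.37 on the log2 scale. Most of the Ifngr2 excess lies in Ifngr2-202, an annotated nonsense-mediated decay transcript of 534 bases, at 34.0 ± 6.61 TPM in the second table and 0.353 ± 0.612 TPM in the first. All of its bases fall inside exons of the full-length Ifngr2-201. Ifngr2-201 itself had 12.4 ± 1.90 TPM in the first table and 12.0 ± 3.02 TPM in the second. In the second table without transcripts under 1000 bases, Ifngr2 came to 18.2 ± 2.75 TPM.

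The ratio of Ifngr1 to Ifngr2 was 1.97, 1.19 and 2.36 by the second table. For the 201 transcripts it was 1.44, 0.777 and 1.90 in the first table and 0.579, 0.319 and 0.654 in the second, where Ifngr1 was the lower chain in every library. No order of the IFNGR chains was common to all measures. Replicate 2 gave the lowest ratio in each of the 4 measures.

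Il10ra (chr9:45253837-45269149, minus strand) encodes the chain that binds interleukin-10 and JAK1. It had 105, 89.3 and 128 TPM, a mean of 107 ± 19.5 TPM (SD, n = 3), and rank 556, the highest of the genes described. Its log2 level above 1 TPM was 6.59 (SE 0.17, limma adjusted p = 3.9e-05). A processed pseudogene, Gm20612, lies within Il10ra on the opposite strand and shares no exonic base with it. It was given 173, 153 and 166 TPM on 90, 75 and 91 counts, few beside the 3690, 4579 and 6132 counts of Il10ra. Since the strand setting is not known, reads of an Il10ra intron and of Gm20612 cannot be told apart there. Reads within Gm20612 lie outside the annotated exons of Il10ra. Il10ra and its ligand gene Il10 were both highest in replicate 3 and lowest in replicate 2. Csf1r and Socs3 had the same order of libraries, so it is not particular to this pair.

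Il10rb (chr16:91406164-91425834, plus strand) encodes the TYK2-binding chain that the receptors for interleukin-10, interleukin-22 and the lambda interferons share. It had 89.5, 66.0 and 75.8 TPM, a mean of 77.1 ± 11.8 TPM, and rank 853 (log2 level 6.12, SE 0.17, limma adjusted p = 3.9e-05). Il10ra was the higher chain in every library, by 1.17, 1.35 and 1.69 times. The second transcript table gave Il10rb 137, 103 and 104 TPM and turned that order in 2 libraries, with ratios of 0.764, 0.777 and 1.05. For the 201 transcripts Il10ra led by 4.84, 4.26 and 3.21 times in the first table and by 4.37, 5.45 and 4.999 times in the second.

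**Figure D2:**
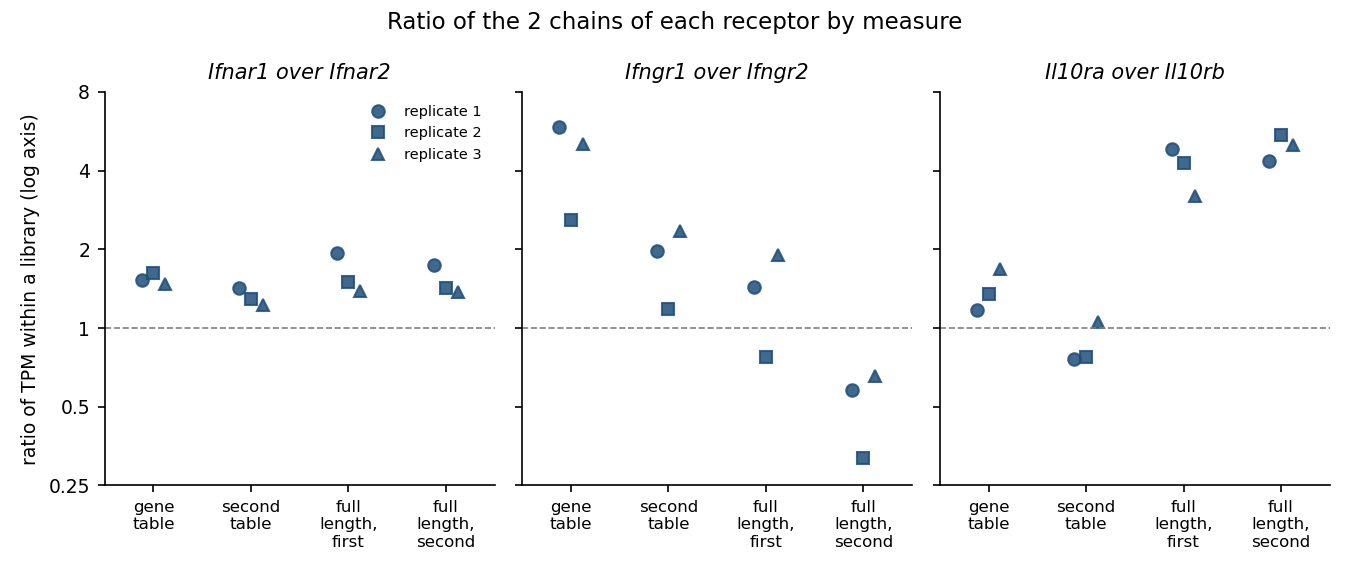
Ratio of TPM between the chains of each receptor within a library (log axis) by 4 measures: the gene table, the second transcript table summed per gene, and the full-length transcript numbered 201 alone in the first and second transcript tables; symbols are replicates and the dashed line is equality. Ifnar1 over Ifnar2 stays between 1.23 and 1.94, while Ifngr1 over Ifngr2 runs from 5.89 down to 0.319 and Il10ra over Il10rb from 0.764 to 5.45.

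By mean TPM in the gene table the order was Il10ra, Ifnar1, Il10rb, Ifngr1, Ifnar2, Ifngr2 and Ifnb1. Neighbours differed by more than their spread over libraries, and in the same direction in all 3, at 3 of the 6 steps: Il10rb over Ifngr1, Ifnar2 over Ifngr2, and Ifngr2 over Ifnb1. The steps from Il10ra to Ifnar1, Ifnar1 to Il10rb and Ifngr1 to Ifnar2 were within it. In the second table the order was Il10rb, Il10ra, Ifngr1, Ifnar1, Ifnar2, Ifngr2 and Ifnb1, and the steps beyond the spread were Ifnar1 over Ifnar2 and Ifngr2 over Ifnb1. Ifngr2 as the lowest receptor chain and Ifnb1 as the lowest gene were common to both orders, although in the second table Ifngr2 and Ifnar2 were within their spread.

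The spread of the receptor chains between libraries ran from low to moderate. The biological coefficient of variation from edgeR was 0.162 for Ifnar2, 0.166 for Ifngr2, 0.176 for Ifnar1, 0.187 for Il10rb, 0.200 for Il10ra and 0.235 for Ifngr1, beside a median of 0.210 over 14140 genes. Ifnar2 and Ifngr2 were above only 3.66% and 8.25% of these genes. Ifngr1 was the 1 chain above that median, and it was above 70.1% of them. Ifnb1 did not have enough counts to be kept in this fit.

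The transcript tables divide each gene's counts among its annotated transcripts, and the 6 receptor genes differed in the type that took them. The only protein-coding transcript of Il10rb, Il10rb-201, took 20.96%, 26.1% and 36.6% of the counts in replicates 1, 2 and 3. The nonsense-mediated decay type, whose reading frame ends early, took 51.0%, 50.1% and 46.5%. That mean of 49.2 ± 2.35% (SD, n = 3) was above 94.7% of the 3428 protein-coding genes with such a transcript, whose median was 2.42%. In the second table the protein-coding share was 17.3 ± 2.97% for Il10rb and 17.1 ± 2.90% for Ifngr1, and the decay type held 52.7 ± 3.10% and 41.1 ± 4.82%. For Ifngr1 the decay type held 10.3 ± 4.49% in the first table, so its place beside Il10rb depended on the table. The counts lay on Il10rb-205, a transcript of 2791 bases of which 882 fall in introns of Il10rb-201. The retained intron transcript Il10rb-204 took a further 27.3%, 23.4% and 16.6%. Transcripts with at least 10% of their bases in introns of Il10rb-201 held 72.1 ± 7.97% of the counts in the first table and 80.1 ± 2.94% in the second.

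Ifnar1 and Ifngr1 also had a large share on retained introns. Ifnar1-205, with 1970 of its 2234 bases in introns of Ifnar1-201, took 37.7%, 43.4% and 34.2% of the Ifnar1 counts. The pair of retained intron transcripts of Ifngr1 took 37.5%, 31.8% and 29.0%. The median over 6837 protein-coding genes with such a transcript was 27.7%, and Ifnar1 and Ifngr1 were above 62.2% and 55.9% of them, so neither share is unusual for these libraries. In the second table the shares were 34.4 ± 2.96% and 34.2 ± 2.83%.

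Ifngr2 and Il10ra have no annotated transcript of the retained intron type, and Ifngr2-201 and Il10ra-201 took 95.2 ± 3.82% and 87.3 ± 7.89% of their counts in the first table. In the second table these shares were 62.1 ± 6.48% and 79.4 ± 1.24%. There Ifngr2-202 took 16.5 ± 1.92% of the Ifngr2 counts and Ifngr2-203 took 21.5 ± 5.02%. In the first table the rest of Il10ra lay mostly on the nonsense-mediated decay transcript Il10ra-203, with 5.95%, 8.90% and 20.9%, highest in replicate 3. The libraries did not differ in this way in the second table, where the values were 20.2%, 19.1% and 18.6%. A gene without an annotated intron-holding transcript cannot show intronic reads in these tables, so a share of 0 is not a measure of splicing.

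All 5 transcripts of Ifnar2 are annotated as protein-coding, and they encode different lengths. Ifnar2-201, with 1539 coding bases, took 82.5 ± 4.96% of the counts in the first table and 59.5 ± 6.43% in the second. Ifnar2-202 and Ifnar2-203 have 741 and 744 coding bases. Receptors of this gene that lack the signalling tail are known as soluble or decoy forms. Ifnar2-203 took 10.4 ± 0.975% in the first table and 23.0 ± 2.75% in the second, and Ifnar2-202 took 1.51 ± 2.61% and 12.9 ± 3.29%. In level per length the order depended on the table. The first table gave Ifnar2-201 23.0 ± 2.14 TPM, Ifnar2-203 9.41 ± 0.411 TPM and Ifnar2-202 0.493 ± 0.854 TPM (SD, n = 3). The second gave Ifnar2-201 17.1 ± 1.38 TPM, Ifnar2-203 21.1 ± 2.86 TPM and Ifnar2-202 4.47 ± 1.29 TPM. There the mean level of Ifnar2-203 was above that of the long form. Ifnar2-205, with 144 coding bases, had 19.9 ± 5.12 TPM in the first table and 14.3 ± 5.30 TPM in the second. Of its 384 bases, 155 fall in introns of Ifnar2-201, as do 127 of the 1099 bases of Ifnar2-203. Together Ifnar2-203 and Ifnar2-205 held 14.3 ± 2.40% and 26.3 ± 3.90% of the counts in the first and second tables. The part of unspliced RNA in their levels was not tested.

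**Figure D3:**
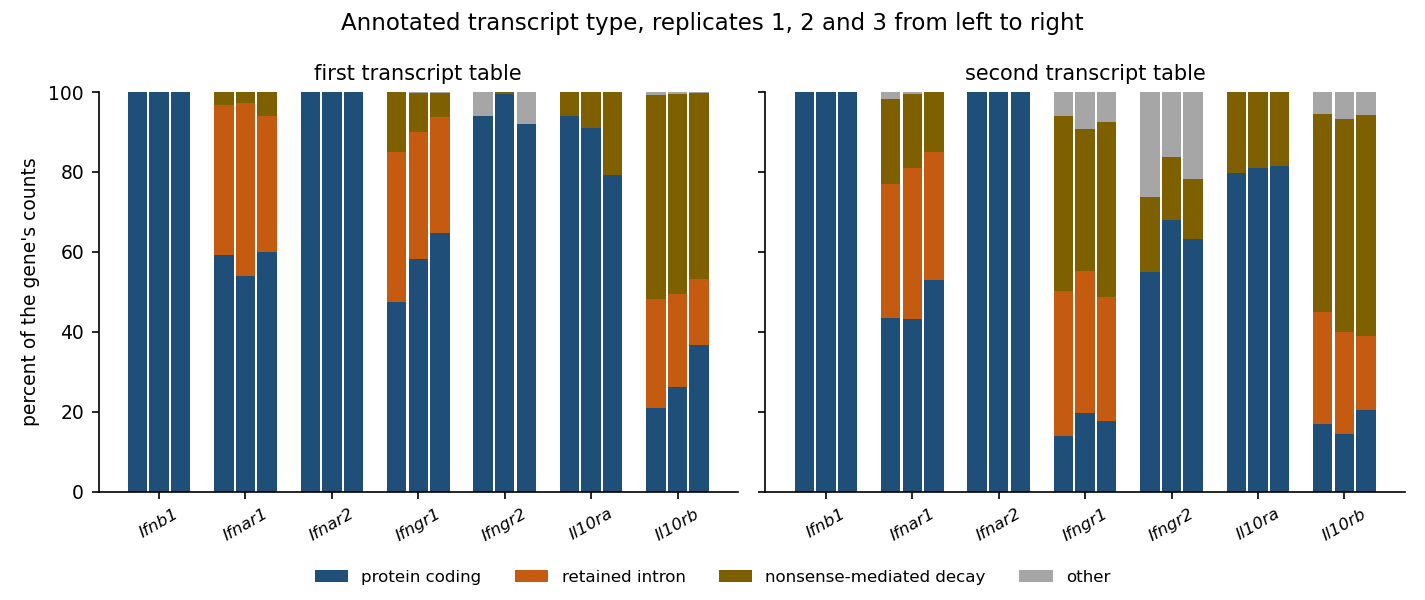
Percent of each gene's counts on annotated transcript types in the first (left) and second (right) transcript table, with bars for replicates 1, 2 and 3 from left to right within a gene. Il10rb has the smallest protein-coding share in the first table, 27.9% on average, and the protein-coding share of Ifngr1 is 56.7% in the first table and 17.1% in the second.

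Ifnar2, Il10rb, Ifnar1 and Ifngr2 lie in this order on chromosome 16, all on the plus strand, within 193 kb. Il10rb starts 574 bp after Ifnar2 ends, Ifnar1 follows after 59.4 kb and Ifngr2 after a further 39.6 kb. The span holds 8 other annotated genes, none of which had more than 1.89 TPM on average. That highest one was the noncoding gene A930006K02Rik, with 1.56, 1.89 and 2.21 TPM. Gm49625, Gm7856 and Gm7860 had 0.34, 0.333 and 0.127 TPM, and Gm46562, Gm49626, Mir6367 and Gm21970 had 0 in the gene table. The genes directly outside were Gm24695, with no count, and Tmem50b, with 2.14 ± 0.259 TPM. The lowest of the 4 receptor genes, Ifngr2, was thus above both flanking genes in every library.

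Gm21970 is annotated across the end of Ifnar2 and the start of Il10rb on the same strand, as a transcript that joins them. It shares 315 exonic bases with Ifnar2 and 569 with Il10rb. It was given no count in the gene table and 0.0503 ± 0.0872 TPM in the second table. Reads that lie within the shared bases cannot be assigned to 1 gene by sequence alone.

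**Figure D4:**
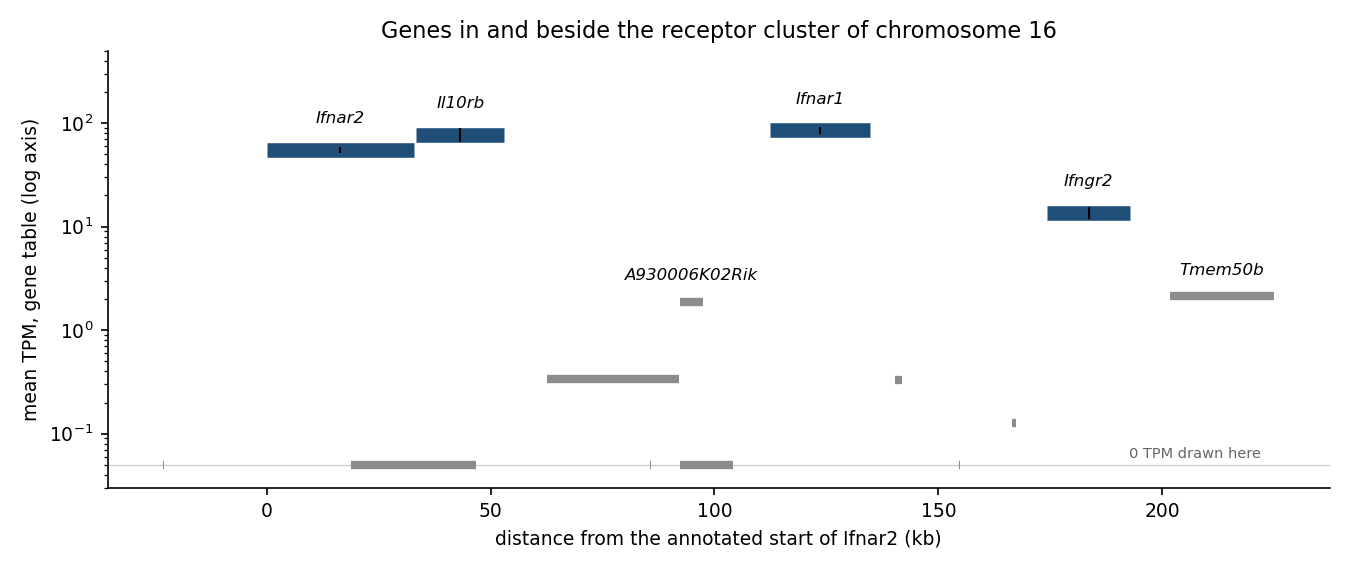
Mean TPM in the gene table (log axis) of the genes in and beside the receptor cluster against distance from the annotated start of Ifnar2 (kb). Wide blue bars are the receptor genes, with SD as a black line (n = 3), grey bars are the others, and genes at 0 TPM are drawn on the lowest line. The receptor genes lie at 13.6 to 85.3 TPM and the others at or below 2.14 TPM.

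Among 34 cytokine receptor genes, made up of the 6 chains and 28 others, Il10ra ranked 3 by mean TPM in the gene table, Ifnar1 8, Il10rb 9, Ifngr1 11, Ifnar2 12 and Ifngr2 17. By the second table Il10rb ranked 6, Il10ra 8, Ifngr1 9, Ifnar1 10, Ifnar2 12 and Ifngr2 14. The ranks of all chains but Ifnar2 thus depended on the table. The highest of the others in the gene table were Csf2ra at 220 ± 34.8 TPM (SD, n = 3), a chain of the GM-CSF receptor, Csf1r at 178 ± 36.0 TPM, the M-CSF receptor, and Tnfrsf1b at 95.2 ± 15.9 TPM, a TNF receptor. Of 22 other receptors of macrophage cytokines, 15 were above 1 TPM and 2 below, beside 61.8% of protein-coding genes tested above it. The median of the 22 was 18.1 TPM.

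Little RNA was found of the rest of the class II cytokine receptor family. A lack of counts is not particular to this family, since 24180 of all 55536 annotated genes had a nonzero TPM. Of those 24180, 51.1% were above 1 TPM and 31.7% below. Of 6 other genes of the family, 1 was above 1 TPM, 2 were below and 3 had no count. The exception was Il20rb at 6.57, 4.22 and 6.55 TPM (limma adjusted p = 0.00046), a chain that pairs with Il20ra or Il22ra1 for interleukin-20 family cytokines. Both of those partners had 0 counts, which allows up to 0.201 and 0.118 TPM. Ifnlr1, which pairs with Il10rb for the lambda interferons, had 0, 0.03 and 0 TPM in the gene table. In the second transcript table it had 0.894 ± 0.191 TPM and was not above 1 TPM. F3, the tissue factor gene, had 0.157 ± 0.0802 TPM in the gene table. Of the receptors that use Il10rb, only that for interleukin-10 had its partner chain above 1 TPM in the gene table.

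All 6 genes of the kinases and factors described here that act behind these receptors were above 1 TPM, beside 61.8% of protein-coding genes tested. The median of the 6 was 70.2 TPM. Stat2, which carries type I interferon signals, had 657, 588 and 466 TPM, and Stat3 had 126, 135 and 120 TPM. The kinase genes ran from Tyk2 at 94.6 ± 9.66 TPM (SD, n = 3) to Jak1 at 35.9 ± 3.18 and Jak2 at 31.8 ± 7.08 TPM. Irf9, a DNA-binding partner of STAT2, had 45.8 ± 7.10 TPM.

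All 10 feedback regulators were above 1 TPM, beside 61.8% of protein-coding genes tested. The median of the 10 was 42.0 TPM. Socs3, the suppressor that STAT3 induces, had 112, 56.4 and 125 TPM, lowest in replicate 2. Ptpn6, the phosphatase SHP-1, had 80.5 ± 16.5 TPM (SD, n = 3). Usp18, which binds IFNAR2 and blocks type I interferon signalling, had 104, 58.6 and 49.0 TPM. Socs1, the suppressor of JAK kinases behind the interferon receptors, was the lowest of the list at 2.16, 3.37 and 2.03 TPM (limma adjusted p = 0.0051).

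All 17 genes of the route that induces Ifnb1 were above 1 TPM, beside 61.8% of protein-coding genes tested. The list was chosen with earlier results of these data known. Ifnb1 itself was not above 1 TPM, except with TPM rescaled over protein-coding genes (limma adjusted p = 0.0017). The median of the 17 was 51.1 TPM. The highest were Ikbke, a kinase of IRF3 and IRF7, at 1244, 1173 and 1046 TPM, Irf1 at 1096, 418 and 901 TPM, and Irf7 at 433, 353 and 315 TPM. Ticam1, the gene of the adaptor TRIF, was the lowest at 6.37 ± 1.70 TPM (SD, n = 3). Tlr4 had 15.1 ± 3.73 TPM and Irf3 82.3 ± 7.48 TPM. In every library each of these genes exceeded Ifnb1, and the presence of the RNA says nothing of the state of the proteins.

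**Figure D5:**
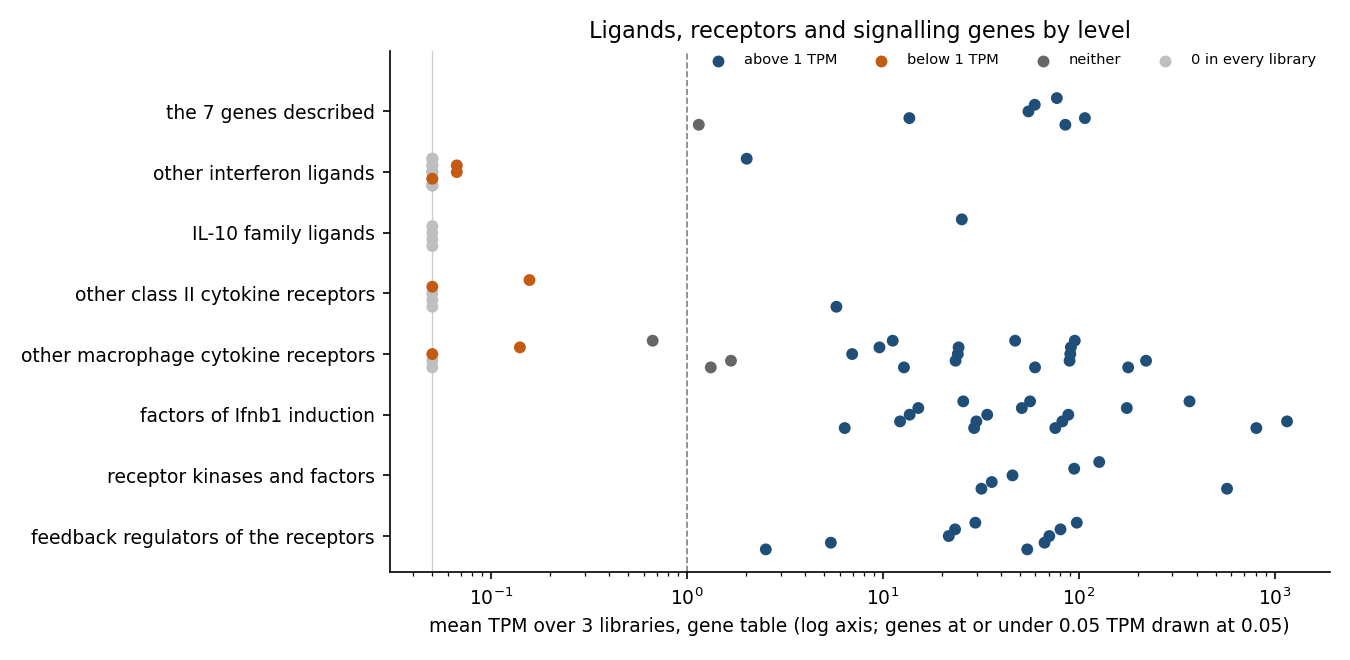
Mean TPM (log axis, n = 3) of each gene of the lists, coloured by its limma test against 1 TPM (dashed line); genes at or under 0.05 TPM are drawn at 0.05 and vertical scatter within a row has no meaning. The kinases, feedback regulators and induction factors all lie above the line, whereas 19 of 20 other interferon ligands lie below it or at 0.

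The protein-coding genes with the most similar levels over the 3 libraries were found by Euclidean distance of log2(TPM + 0.1). They were Kif11 for Ifnb1, Arhgap12 for Ifnar1, Rasa1 for Ifnar2, Tfec for Ifngr1, Dbf4 for Ifngr2, Pik3r1 for Il10ra and Ctnnb1 for Il10rb. The distances ran from 0.04 for Ifnar1 to 0.22 for Ifnb1. Tfec had 77.6, 39.1 and 64.2 TPM. It was picked by these same values, so a low second library like that of Ifngr1 follows from the choice.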

How the data were processed

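Per the labels, the data are 3 libraries of 1 group. Per the file headers, 2 of the deposited tables (1 by gene, the first by transcript) hold the authors' expected counts and TPM. A second transcript table has the authors' estimated counts and TPM, per its header. The deposited notes give mm10 and annotation release M21. For the aligner, the tool versions and the strand setting, nothing is stated in the sources used here, so overlapping genes may share reads. Rows naming no gene (0.401% to 1.04% of counts) were left out. Chi-square per degree of freedom between libraries was 40.1 to 75.9, so no library was a copy.

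The genes and the lists beside them were chosen with earlier results of these data known. Levels were fitted with limma 3.58.1 as log2(TPM + 0.1) against 1 TPM, one-sided in each direction. The fit took the 24180 genes that were not 0 in every library, and p was adjusted by Benjamini-Hochberg (threshold 0.05). This scale understates differences near 0.1 TPM. Spread came from edgeR 4.0.16 on expected counts rounded to whole numbers (TMM, filterByExpr, 14140 genes). Both steps were tested on simulated data. Chains were compared within libraries by an exact sign-flip permutation test. Promoter windows are RefSeq's. The genes named were the members, the 3 highest of each list by mean TPM, sole exceptions to a list's call, the nearest gene by level, and genes in or beside the chromosome 16 cluster. Of the kinases and factors behind the receptors, 1 gene is not reported here and was left out of that list. Further kinases, adaptors and partner chains of the lists were named after their values were seen. Alternatives were another pseudocount, floor, filter, table, scale and size factors (DESeq2 1.42.0), and leaving out each library.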

Additional observations from a re-analysis of the deposited data

How the results depend on the processing

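No paired analysis was possible because there is 1 group only. The count of the 7 genes above the floor was 6 under 9 of 10 alternatives and 7 with TPM rescaled over protein-coding genes. Under 1 of the 9 the floor was 5 TPM. Ifnb1 was outside the fits with a mean count of at least 10 and without transcripts under 1000 bases. The count could not exceed 6 in those fits. Leaving out each library kept the count at 6, with 11900 to 11961 genes above in all. Over all genes the count was 12367, and it was 7051 with a floor of 5 TPM and 19775 in the second transcript table. The 6 receptor chains were above the floor under every alternative run. Ifnb1, at a log2 level of 0.11, came to -2.11 against 5 TPM, -0.041 in the second table, -0.94 as counts scaled to library size (CPM), -0.21 without replicate 1 and at most 0.32 without another, and 1.68 over protein-coding genes, the 1 alternative in which it passed.

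The log2 difference of Ifnar1 from Ifnar2 was 0.62, 0.39 in the second table and 0.59 to 0.65 leaving out 1 library. That of Ifngr1 from Ifngr2 was 2.08, 0.82 in the second table, 0.36 and -1.005 for the full-length transcripts in the first and second tables, and 1.85 to 2.44 leaving out 1 library, highest without replicate 2. That of Il10ra from Il10rb was 0.47, -0.23 in the second table, 2.01 and 2.29 for the full-length transcripts, and 0.33 to 0.59 leaving out 1 library. The cause was not tested. The comparisons of full-length transcripts and the exclusion of transcripts under 1000 bases were chosen after seeing the data. Among other interferon ligands 1 was above the floor, with 0 at 5 TPM or as CPM and 2 in the second table. Markers of other cells above the floor numbered 1, and 8 in the second table. All 12 alternative estimates of spread were within 1.5 times of the first ones. Of 52 alternative transcript shares, 8 moved by more than 1 SD, all of them in the second table. Shares that left out 1 library could not move that far, so they say nothing of stability. Second-table shares that stayed within 1 SD were those on retained introns and those of Il10ra. With 6 to 10 counts per library, depth limits Ifnb1.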
